A study of Mus musculus with 12 samples.

Results

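The circular RNAs described here come from cell adhesion and extracellular matrix genes. They were chosen by the name of the host gene, the gene whose exons are joined into the circle: integrins (Itga and Itgb), laminins (Lam), collagens (Col), cadherins (Cdh), catenins (Ctnn), the giant cadherins (Fat), the receptor-type tyrosine phosphatases (Ptpr), the ADAM and ADAMTS proteases (Adam) and fibronectin (Fn1), leaving out Col28a1. Of 4455 single hosts in the series, 49 matched by name, and 48 of them had at least 1 read. The rule reads names and not function, so it also took in Col4a3bp, which encodes a ceramide transfer protein, Ctnnbl1, which encodes a spliceosome-associated protein, and Itgb3bp, which encodes a centromere protein. RNA of 4 mouse cell lines was sequenced after digestion of linear RNA with RNase R, with 3 libraries per line. The lines were 4T1 (breast cancer cells) and Eph4-ev (breast epithelial cells), and B16F10 (melanoma cells) and Melan-a (melanocytes). By its title the series is after tumour-specific circRNAs, and 4T1 was therefore set against Eph4-ev and B16F10 against Melan-a. With 1 tumour line and 1 other line per lineage, an effect of the tumour and any other trait of a line cannot be told apart. The labels name no treatment and do not say that the libraries of a line are separate cultures, so p-values measure only the spread between these samples, which may be technical.

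A circRNA forms when the splicing machinery joins the end of an exon to the start of the same or an earlier exon. The closed ring has no free ends, which is why it resists RNase R, and only reads that cross the back-spliced join count towards it. The level of a circRNA need not follow the messenger RNA or the protein of its host. In epithelia the host proteins work as one system: integrins bind laminins, collagens and fibronectin outside the cell, cadherins bind neighbouring cells, catenins tie cadherins to actin, receptor phosphatases act on both kinds of contact, and ADAM and ADAMTS proteases cut the surface proteins and the matrix. Melanocytes hold on to keratinocytes through cadherins and to the basement membrane through integrins.

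The joins below are those of the circRNAs that differed between 4T1 and Eph4-ev and of the most abundant ones of either lineage that can be shown. Each reads 5′ to 3′ on the strand of the host. Lower case marks the last bases of the ring's final exon and capitals the first bases of its first exon, so that the change of case is the back-splice. They were read from GENCODE M21 transcripts (mm10). The ring of exon 2 of Fat1 runs across the start of the coding sequence, so fewer bases of it are shown.
Adamts14, exons 3 to 4: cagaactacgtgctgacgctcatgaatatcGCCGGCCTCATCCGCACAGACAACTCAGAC
Adam9, exons 12 to 14: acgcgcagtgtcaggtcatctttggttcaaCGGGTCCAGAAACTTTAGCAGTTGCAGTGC
Itgb5, exon 10: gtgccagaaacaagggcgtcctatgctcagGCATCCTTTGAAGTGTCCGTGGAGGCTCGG
Ctnnbl1, exons 2 to 3: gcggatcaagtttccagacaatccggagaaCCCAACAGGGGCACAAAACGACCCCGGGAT
Ptprm, exons 15 to 17: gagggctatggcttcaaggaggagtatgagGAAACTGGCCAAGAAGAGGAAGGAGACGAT
Fat1, exon 2: tagatgaagaaacagGTGGCCAGGAGTTAA
The Adamts14 ring is 348 bases long, a multiple of the codon length. Read in the frame of the host protein, it met no stop codon within 4 turns. The Itgb5 ring is 430 bases and met one 2 codons past the join. That of Ctnnbl1 (296 bases) and that of Adam9 (461 bases) each met one after 15 codons, that of Ptprm (415 bases) after 25 and that of Fat1 (3286 bases) after 26. These are properties of the reference sequence. Translation was not measured.

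Depth was low and uneven: the libraries held 15572 to 44625 junction reads in 4T1, 50648 to 56649 in Eph4-ev, 16697 to 20011 in B16F10 and 25072 to 33557 in Melan-a. Levels are given as RPM, the junction reads of a circRNA or host scaled to the same total of junction reads in every library, in which 1 read is worth 64.2 RPM in 4T1 replicate 1 and 17.7 RPM in Eph4-ev replicate 2. A count of 0 over the 3 libraries of a line allows up to 38.5 RPM in 4T1, 18.4 in Eph4-ev, 55.9 in B16F10 and 35.8 in Melan-a, for counting error only. Hosts with epithelial marker names had reads for 6 of 20 genes in 4T1 (2039 to 3552 RPM in sum) and 7 of 20 in Eph4-ev (2101 to 2880 RPM). Pigment cell markers had reads for 10 of 17 in B16F10 (11214 to 13193 RPM) and 11 of 17 in Melan-a (5804 to 9894 RPM). The keratins Krt5, Krt8, Krt14 and Krt18 gave no reads in the mammary lines, nor did Mlana, Kit and Ednrb in the melanocyte lines. Of the 14 immune cell markers none had a read in any line, and of the endothelial and mesenchymal ones only Zeb1 and Pecam1 (Eph4-ev), Cdh2 and Vim (B16F10 and Melan-a) and Zeb2 (Melan-a) did. In bulk samples fewer cells of a type and less RNA per cell cannot be told apart.

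The adhesion and matrix hosts held about 1.00% of the junction reads of 4T1 and less in the other lines, and a few hosts held most of these. Their share was 0.983%, 1.07% and 0.948% in 4T1 (1.00% ± 0.0637, SD, n = 3) and 0.942%, 0.927% and 0.720% in Eph4-ev (0.863% ± 0.124, SD, n = 3). Every 4T1 library stood above every Eph4-ev library, by little. The share was 0.670%, 0.655% and 0.515% in B16F10 (0.613% ± 0.0854, SD, n = 3) and 0.459%, 0.647% and 0.433% in Melan-a (0.513% ± 0.117, SD, n = 3), and these ranges overlapped. No test was run on these shares, since the members were chosen by name with earlier results of these data known.

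A single library held between 17 and 51 of these circRNAs. The number was 28, 34 and 38 in 4T1, against 45, 51 and 43 in Eph4-ev, where depth was greater. Thinned to the same number of reads, both lines held 31.0 on average (SD 2.65 in 4T1 and 4.00 in Eph4-ev, n = 3 each). The counts were 35, 29 and 29 in B16F10, against 24, 28 and 17 in Melan-a, and after thinning 29.7 ± 1.15 and 20.3 ± 3.79 (SD, n = 3 each). A single read was enough for a circRNA to be counted, so part of these numbers rests on single reads. With at least 2 reads asked for, the mean of B16F10 was lower than with single reads counted, as given further below. The mean of Melan-a with at least 2 reads is not given here. The higher number in B16F10 is therefore stated only for counts that include single reads.

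**Figure D1:**
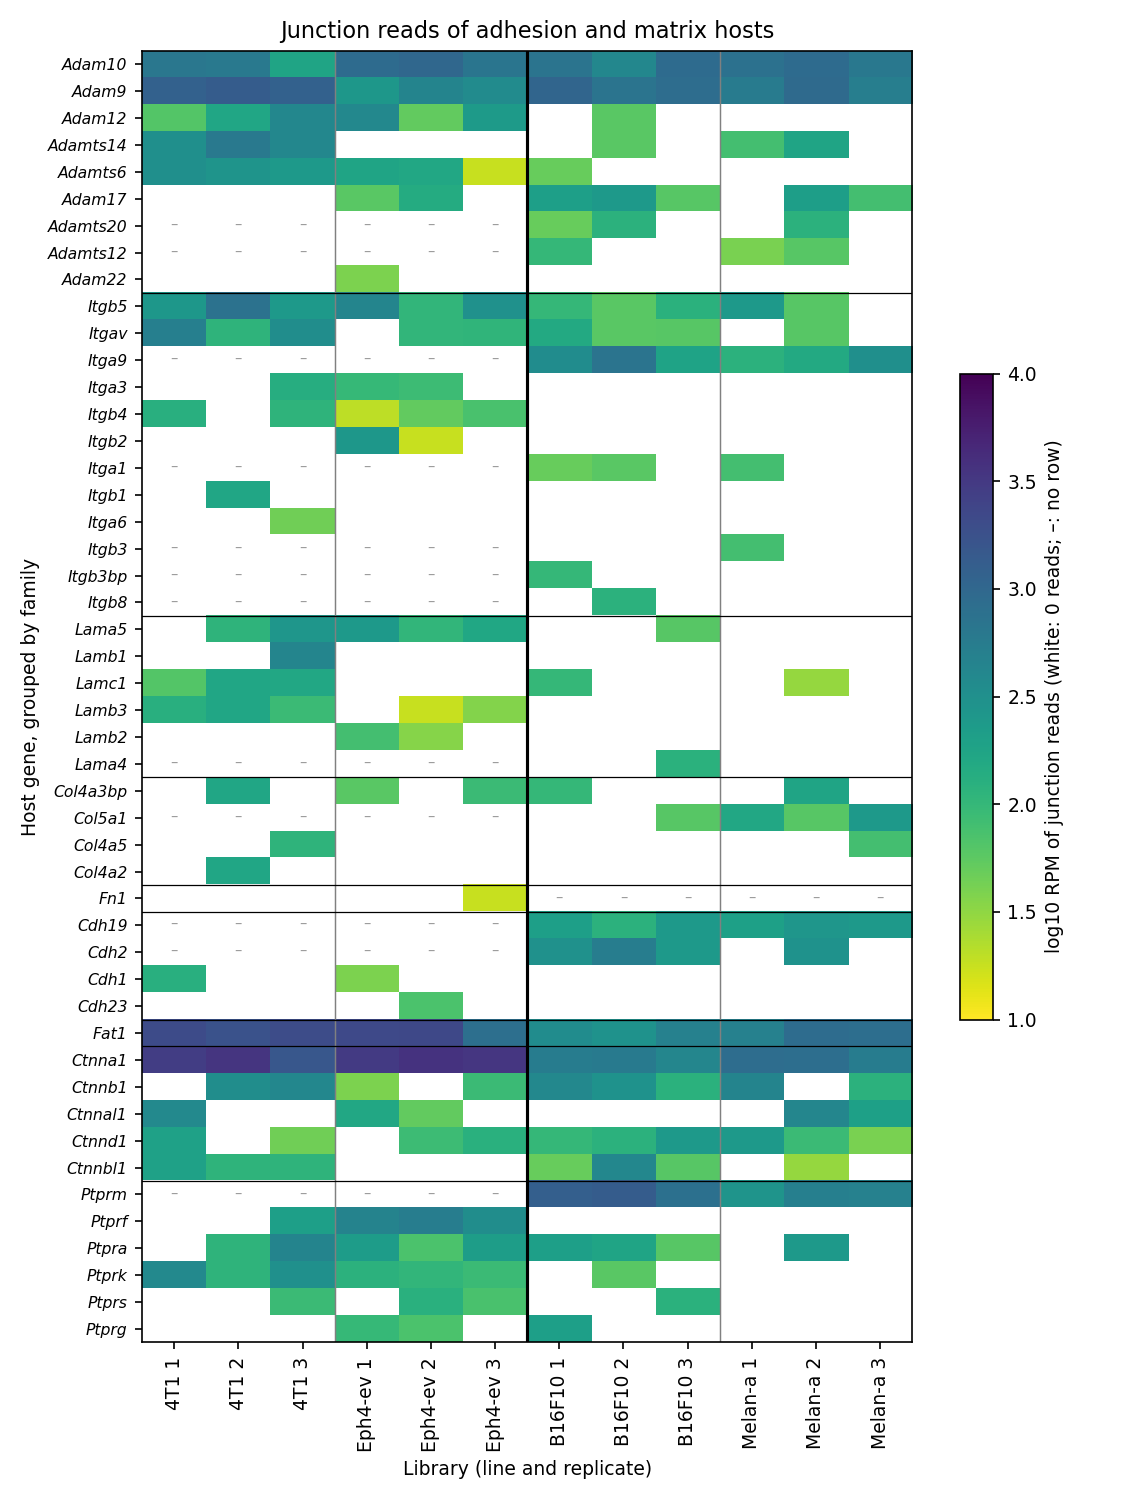
Junction reads of the 48 hosts with reads, 1 host per line of the grid and 1 library per column, as log10 RPM, grouped by family; white is 0 reads and a dash marks a host that the table of that lineage does not list. Ctnna1, Fat1, Adam9 and Adam10 have reads in all 12 libraries, while Ptprm, Cdh2 and Cdh19 have reads in melanocyte columns alone and Ptprf and Lamb3 in mammary columns alone.

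In the mammary lines Ctnna1 and Fat1 alone gave 53.4% of 2168 reads, and with Adam10, Adam9 and Ptprf 71.9%. In the melanocyte lines Adam9, Adam10, Ptprm, Ctnna1 and Fat1 gave 61.7% of 772 reads. Of the 48 hosts, 22 had reads in both lineages, 14 in the mammary lines alone and 12 in the melanocyte lines alone. That is 45.8%, 29.2% and 25.0%, where of all 4349 single hosts with reads 61.7% had them in both, 21.5% in the mammary lines alone and 16.8% in the melanocyte lines alone. Those read in the mammary lines alone were Ptprf (81 reads in all), Lamb1 (19), integrins α3 (16), β4 (15) and β2 (14), and Lamb3 (12). The rest of them were Lamb2 (6), E-cadherin (Cdh1, 4), Cdh23 (4), integrins β1 (3) and α6 (2), Col4a2 (3), Adam22 (2) and Fn1 (1). Those read in the melanocyte lines alone were Ptprm (97), integrin α9 (38), cadherin-19 (30), N-cadherin (Cdh2, 29) and the collagen V chain Col5a1 (13). The rest of them were Adamts20 (7), Adamts12 (5), integrins α1 (4), β3 (2) and β8 (2), Lama4 (2) and Itgb3bp (2). Under 10 reads in all were had by 8 of the 14 read in the mammary lines alone and 7 of the 12 read in the melanocyte lines alone. Of all single hosts read in 1 lineage alone, 71.0% of the mammary and 77.3% of the melanocyte ones had under 10. The shares are descriptions without a test. The lineages were deposited with separate lists of circRNAs, and how these lists were drawn up is not known. Levels across the lineages are therefore set side by side and not tested.

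4T1 was compared with Eph4-ev to ask which of these circRNAs differ between breast cancer cells and breast epithelial cells. Protease circRNAs were among those that differed. The circRNA of Adamts14, a procollagen-processing protease, had reads in every 4T1 library and none in Eph4-ev, and the circRNAs of Adam9, a membrane-bound sheddase, rose to a summed 1225 RPM in 4T1, against 353 RPM in Eph4-ev. A circRNA of exon 10 of integrin β5 and one of Ctnnbl1, the host of a spliceosome-associated protein, were also higher in 4T1, on few reads. Of the 36 hosts, 14 had enough reads to be tested with edgeR, and 3 were higher and 0 lower in 4T1 at an adjusted p under 0.05, where 17.5% of all 1515 hosts were called (6.86% higher and 10.6% lower). The members' share of calls is thus near that of all hosts. Ctnnbl1, taken in by its name only, is among the 3 called hosts. With 6 of the 14 at an unadjusted p under 0.05, the median log2 fold change was 0.31 over these 14 and -0.09 over all hosts tested. DESeq2 called 2 higher and 0 lower.

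Adamts14 had 5, 11 and 18 reads in 4T1, against 0, 0 and 0 in Eph4-ev, all from its only circRNA (chr10:61245926-61249760, exons 3 to 4). It stood at 448 ± 155 RPM in 4T1 (SD, n = 3), with no overlap between the lines. Only its 4T1 reads took it past the filter on low counts, so the lack of overlap is not separate support. Against a floor of 3 reads over the Eph4-ev libraries it was at least 23.7-fold higher in 4T1 (edgeR adjusted p = 0.00239 for the host). The call held in each of the 8 other settings and without each library in turn, where the adjusted p lay between 0.00525 and 0.0409. The ring lies in the coding sequence behind an intron of 21096 bases.

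Adam9 had 18, 24 and 52 reads in 4T1, against 13, 25 and 20 in Eph4-ev, which is 1225 ± 111 RPM in 4T1 and 353 ± 92.5 RPM in Eph4-ev (SD, n = 3 each). By RPM every 4T1 library stood above every Eph4-ev library. The log2 fold change was 1.64 (SE 0.40, edgeR adjusted p = 0.0105). Nearly all of these reads came from the ring of exons 12 to 14 (chr8:24978428-24982122), which had 18, 24 and 49 reads in 4T1, against 13, 23 and 20 in Eph4-ev (log2 fold change 1.57, SE 0.38, edgeR adjusted p = 0.0186 among circRNAs). The host missed the threshold without Eph4-ev replicate 1 (adjusted p = 0.0658), 2 (0.0523) or 3 (0.0510), and the ring missed it without each library other than 4T1 replicate 1 (0.0543 to 0.0964) and with no filter on low counts (0.188).

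Other proteases differed less or unevenly. Adam10, the sheddase of Notch and of cadherins, had 10, 11 and 8 reads in 4T1, against 45, 56 and 38 in Eph4-ev. At 481 ± 261 RPM in 4T1 and 854 ± 155 RPM in Eph4-ev (SD, n = 3 each), its log2 fold change was -1.11 (SE 0.49, edgeR adjusted p = 0.136), which did not pass. Its 7 circRNAs were spread over exons 2 to 14, and that of exons 2 to 4 gave 79.3% of its reads in 4T1 and 63.3% in Eph4-ev. The ring of exons 5 to 8 (chr9:70740075-70748266) had 0 reads in 4T1, against 5, 9 and 2 in Eph4-ev, at least 2.55-fold higher in Eph4-ev, and was too low to test. Adamts6 and Adam12, a secreted protease and a membrane protease, did not pass (adjusted p = 0.451 and 0.972). Adam17, which releases tumour necrosis factor, had 0 reads in 4T1, against 3, 8 and 0 in Eph4-ev, too few to test.

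**Figure D2:**
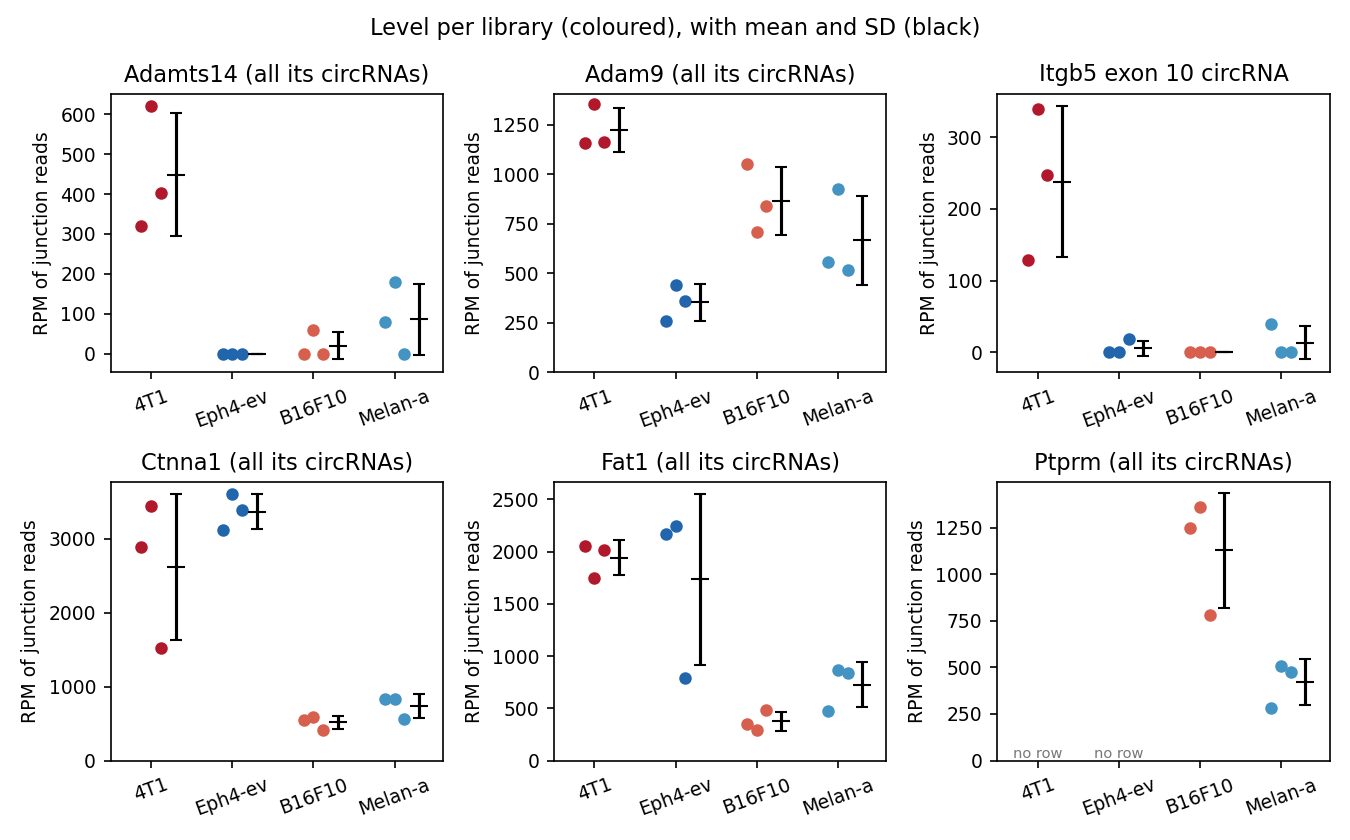
RPM of junction reads in each library (coloured points) with the mean and SD of 3 libraries (black), for 5 hosts and the circRNA of exon 10 of Itgb5, by line. Adamts14 is above 0 in all 3 4T1 libraries and at 0 in Eph4-ev, Adam9 averages 1225 RPM in 4T1 and 353 RPM in Eph4-ev, and Fat1 has 1 Eph4-ev library far below the other 2.

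Among matrix molecules no host passed, and all but Lama5 were too low to test. Lamc1, the γ1 chain of most laminins, had 1, 3 and 7 reads in 4T1, against 0 in Eph4-ev, at least 7.66-fold higher in 4T1 by pooled reads. Lamb3, a chain of laminin-332, had 2, 3 and 4 reads in 4T1, against 0, 1 and 2 in Eph4-ev, a ratio of 6.27 with a 95% exact counting interval of 1.56 to 36.0. Such an interval leaves out the spread between libraries. Every 4T1 library of either gene was above every Eph4-ev library by RPM. All 19 reads of Lamb1 came from 4T1 replicate 3, from rings of exons 2 to 13 (12 reads) and exons 2 to 6 (7 reads), so nothing can be said of the line. Lamb2, another laminin β chain, had 0 reads in 4T1, against 4, 2 and 0 in Eph4-ev. Lama5, a chain of laminin-511, had 0, 2 and 12 reads in 4T1, against 12, 6 and 9 in Eph4-ev, over 8 different rings, and did not pass (log2 fold change -0.30, SE 0.96, edgeR adjusted p = 0.868). Collagen hosts gave 11 reads in 4T1, against 8 in Eph4-ev, of which Col4a3bp, no collagen, gave 3 in 4T1 and all 8 in Eph4-ev. Col4a2, a chain of basement membrane collagen, had 0, 3 and 0 reads in 4T1, against 0 in Eph4-ev. Fibronectin had a single read, in Eph4-ev.

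Among the matrix receptors, integrin β5 (Itgb5), which pairs with αv to bind vitronectin, had 1 ring that was higher in 4T1 and did not pass as a whole. The host had 4, 13 and 11 reads in 4T1, against 22, 6 and 17 in Eph4-ev (log2 fold change 0.35, SE 0.70, edgeR adjusted p = 0.788). The ring of exon 10 alone (chr16:33919785-33920214) had 2, 6 and 11 reads in 4T1, against 0, 0 and 1 in Eph4-ev. It made up 67.9% of the host's reads in 4T1 and 2.22% in Eph4-ev, with a pooled RPM ratio of 39.7 (95% exact counting interval 6.31 to 1650) and no overlap between the lines. The interval leaves out the spread between libraries. Only its 4T1 reads took this ring past the filter on low counts, so the lack of overlap is not separate support.

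That ring passed among circRNAs (edgeR adjusted p = 0.0282), but not without 4T1 replicates 1 (0.0612) and 2 (0.121) or Eph4-ev replicates 1 (0.124), 2 (0.148) and 3 (0.0846), and not with no filter (0.184), and it was too low to test without 4T1 replicate 3 or with a minimum count of 10. The ring of exons 3 to 4 of the same gene had 0, 1 and 0 reads in 4T1, against 8, 0 and 8 in Eph4-ev. Its ratio was 7.66 in favour of Eph4-ev (95% exact counting interval 1.19 to 321, without the spread between libraries). Integrin αv (Itgav) had 8, 2 and 15 reads in 4T1, against 0, 6 and 6 in Eph4-ev and did not pass (log2 fold change 1.97, SE 1.00, edgeR adjusted p = 0.196). Integrin β2, of leukocytes, had 0 reads in 4T1, against 13, 1 and 0 in Eph4-ev, so that almost all came from 1 library, and the immune cell markers were at 0 there.

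**Figure D3:**
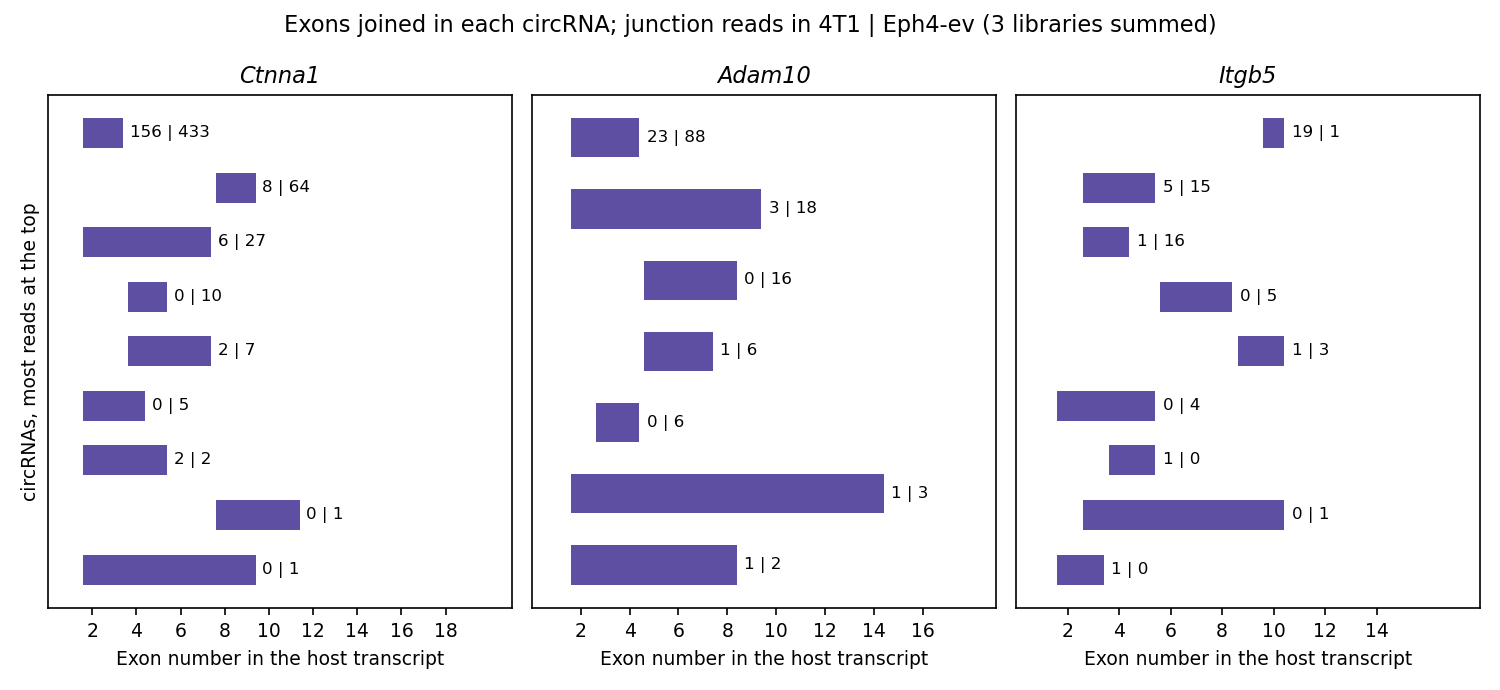
Exons joined in each circRNA of Ctnna1, Adam10 and Itgb5 in the mammary table, as bars along the exon number of the host transcript, with the reads of 3 libraries summed for 4T1, left of the mark, and Eph4-ev, right of it. The ring of exons 2 to 3 of Ctnna1 holds most reads in both lines, while Itgb5 has 19 reads of exon 10 in 4T1 and 1 in Eph4-ev.

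Cell contact genes gave the most abundant rings. Ctnna1, α-catenin, which couples the cadherin complex to actin, had 45, 61 and 68 reads in 4T1, against 158, 204 and 188 in Eph4-ev. That is 2618 ± 986 RPM in 4T1 and 3368 ± 241 RPM in Eph4-ev (SD, n = 3 each), and the lines overlapped. Its log2 fold change of -0.56 (SE 0.26, edgeR adjusted p = 0.149) did not pass, except with no filter (0.0399). The ring of exons 2 to 3 (chr18:35152601-35154540) held 89.7% of its reads in 4T1 and 78.7% in Eph4-ev. The ring of exons 8 to 9 (chr18:35222065-35223575) had 2, 0 and 6 reads in 4T1, against 17, 26 and 21 in Eph4-ev. All 3 4T1 values of that ring lay below those of Eph4-ev by RPM, yet it did not pass (log2 fold change -2.19, SE 0.80, edgeR adjusted p = 0.0901) except under limma-voom (0.0371). Its 4T1 reads alone would not have taken it past the filter on low counts, so the lack of overlap is not separate support.

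Fat1, a giant cadherin of cell contacts, had 32, 31 and 90 reads in 4T1, against 110, 127 and 44 in Eph4-ev, with Eph4-ev replicate 3 far below the other 2. Its log2 fold change was 0.03 (SE 0.34, edgeR adjusted p = 0.972), and 94.8% of its reads in 4T1 and 95.4% in Eph4-ev came from the single exon 2. Ctnnbl1, a host taken in by its name only, had 3, 2 and 5 reads in 4T1, against 0 in Eph4-ev, from 1 ring (chr2:157774411-157779918, exons 2 to 3). Only its 4T1 reads took it past the filter on low counts. Ctnnbl1 was at least 6.97-fold higher in 4T1 (edgeR adjusted p = 0.0409 for the host and 0.0312 for the ring). That call ended without Eph4-ev replicate 1 (adjusted p = 0.148 for the host), 2 (0.134) or 3 (0.121), under DESeq2 (0.0558) and with no filter (0.130), and without any 1 of the 4T1 libraries, or with a minimum count of 10, the host was too low to test. β-catenin (Ctnnb1) had 0, 6 and 18 reads in 4T1, against 2, 0 and 5 in Eph4-ev. E-cadherin had 2, 0 and 0 reads in 4T1, against 2, 0 and 0 in Eph4-ev. Cdh23, a cadherin of hair cells, had 0 reads in 4T1, against 0, 4 and 0 in Eph4-ev. All 3 were too low to test.

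No receptor phosphatase passed the test. Ptprf (LAR), which sits at cell contacts and focal adhesions, had 0, 0 and 9 reads in 4T1, against 23, 30 and 19 in Eph4-ev, 67.2 ± 116 RPM in 4T1 and 442 ± 94.4 RPM in Eph4-ev (SD, n = 3 each). All 4T1 libraries were below all Eph4-ev libraries. Ptprf would not have passed the filter on low counts without its Eph4-ev reads, so the lack of overlap is not separate support. The log2 fold change of -2.29 (SE 0.87, edgeR adjusted p = 0.0864) missed the threshold, which it passed under limma-voom (0.0152), with no filter (0.0388) and without 4T1 replicate 3 (0.0103). Its ring of exons 2 to 5 (chr4:118269176-118284852) had 0, 0 and 5 reads in 4T1, against 10, 22 and 10 in Eph4-ev (-2.36, SE 1.04, adjusted p = 0.151). Ptprk, a homophilic adhesion phosphatase, and Ptpra, which activates Src kinases, did not pass (adjusted p = 0.350 and 0.887).

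**Figure D4:**
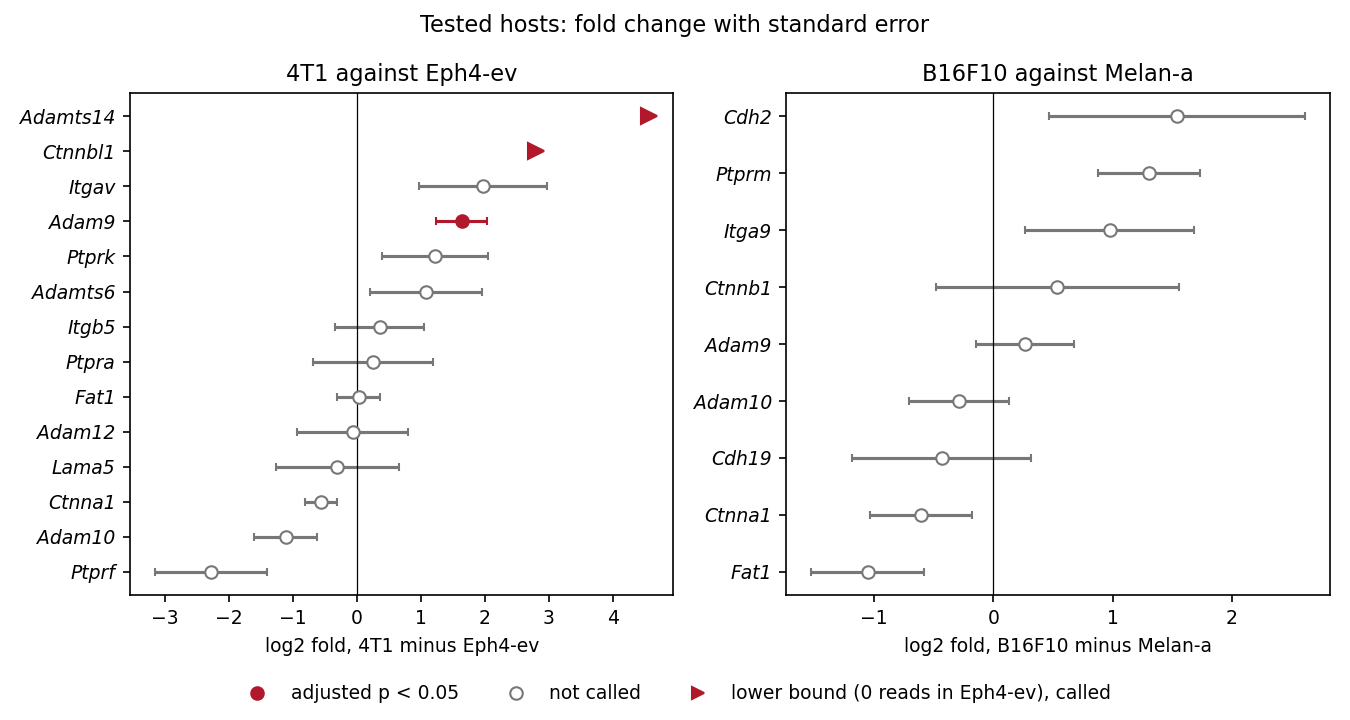
Log2 fold change with its SE for the tested hosts, 4T1 over Eph4-ev at the left and B16F10 over Melan-a at the right; filled points passed an adjusted p under 0.05, open points did not, and triangles are lower bounds of called hosts with 0 reads in Eph4-ev. Adam9, Adamts14 and Ctnnbl1 are filled, all on the 4T1 side, and no host of the melanocyte panel is filled.

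At the level of single rings, 16 of the 100 mammary circRNAs were tested and 4 were higher and 0 lower in 4T1, where 17.4% of all 1869 circRNAs were called (5.99% higher and 11.4% lower). The 4 were those of Adamts14 (edgeR adjusted p = 0.00798 for its ring), Adam9, Itgb5 and Ctnnbl1 described above. At an unadjusted p under 0.05 there were 6, and DESeq2 called 3 higher and 0 lower. The median log2 fold change was -0.24 over these 16 rings and -0.22 over all circRNAs tested.

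B16F10 was compared with Melan-a to ask the same of melanoma cells and melanocytes. No host passed the test: of 34 with reads, 9 were tested with edgeR and 0 were called, where 7.13% of all 898 hosts were (2.78% higher and 4.34% lower in B16F10). At an unadjusted p under 0.05 there were 2, and DESeq2 and limma-voom called 0. The nearest was Ptprm, a phosphatase that binds itself on the neighbouring cell. It had 25, 23 and 13 reads in B16F10, against 7, 17 and 12 in Melan-a, 1128 ± 308 RPM in B16F10 and 421 ± 124 RPM in Melan-a (SD, n = 3 each). Every B16F10 library stood above every Melan-a library, but the log2 fold change of 1.31 (SE 0.42, edgeR adjusted p = 0.0787) did not pass. Of its 97 reads, 96 came from the ring of exons 15 to 17 (chr17:66809466-66817977), whose value was 1.32 (SE 0.43, edgeR adjusted p = 0.0593). This ring passed when scaled by total reads alone (0.0474), with a minimum count of 10 (0.0332), when thinned (0.0299) and without Melan-a replicate 2 (0.0343). It did not pass in the rest of the 8 other settings or without any other library. There the adjusted p lay between 0.0609 (RLE factors) and 0.312 (no filter), with 0.166 under DESeq2 and 0.264 without B16F10 replicate 2.

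The cadherin hosts of these lines were those of N-cadherin and cadherin-19. N-cadherin had 6, 9 and 4 reads in B16F10, against 0, 10 and 0 in Melan-a, so 1 Melan-a library held all of that line's reads. Its log2 fold change was 1.54 (SE 1.07, edgeR adjusted p = 0.455), and without Melan-a replicate 2 the adjusted p was 0.0427. Cadherin-19 had 4, 2 and 4 reads in B16F10, against 5, 9 and 6 in Melan-a (edgeR adjusted p = 0.797). Fat1 had 7, 5 and 8 reads in B16F10, against 12, 29 and 21 in Melan-a, 375 ± 94.5 RPM in B16F10 and 726 ± 215 RPM in Melan-a (SD, n = 3 each). Its log2 fold change of -1.05 (SE 0.47, edgeR adjusted p = 0.220) did not pass, and the highest B16F10 library and the lowest Melan-a library both stood at 479 RPM. β-catenin had 8, 5 and 2 reads in B16F10, against 11, 0 and 3 in Melan-a (edgeR adjusted p = 0.829). Ctnna1 stood at 520 ± 89.3 RPM in B16F10 and 743 ± 161 RPM in Melan-a (SD, n = 3 each; edgeR adjusted p = 0.456).

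Integrin α9 (Itga9), which binds tenascin and other matrix ligands, led the integrins with 7, 12 and 3 reads in B16F10, against 3, 5 and 8 in Melan-a (log2 fold change 0.98, SE 0.71, edgeR adjusted p = 0.479). Adam9 had 21, 12 and 14 reads in B16F10, against 14, 31 and 13 in Melan-a (0.26, SE 0.41, adjusted p = 0.785), and Adam10 had 14, 7 and 15 in B16F10, against 19, 30 and 16 in Melan-a (-0.29, SE 0.42, adjusted p = 0.762). Both proteases overlapped between the lines. Integrin β5 had 2, 1 and 2 reads in B16F10, against 6, 2 and 0 in Melan-a, and Ptpra had 4, 3 and 1 in B16F10, against 0, 8 and 0 in Melan-a. Laminin hosts gave 5 reads in B16F10, against 1 in Melan-a. Of these, Lamc1 gave 2 in B16F10, against 1 in Melan-a, and Lama4 gave 2 in B16F10, against 0 in Melan-a. Collagen V (Col5a1), a fibrillar collagen chain, had 0, 0 and 1 reads in B16F10, against 4, 2 and 6 in Melan-a, a ratio of 7.68 in favour of Melan-a (95% exact counting interval 1.14 to 328). This interval leaves out the spread between libraries. The α-catenin relative Ctnnal1 had 0 reads in B16F10, against 0, 14 and 5 in Melan-a. Of 71 rings with reads, 7 were tested and 0 were called by edgeR, where 10.9% of all 874 were (5.03% higher and 5.84% lower in B16F10). At an unadjusted p under 0.05 there were 2, and DESeq2 and limma-voom called 0.

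Whether a host moved differently in the 2 lineages was tested as the interaction over all 12 libraries. Of 12 members tested, 1 was called, where 9.69% of all 1341 hosts were, and 2 had an unadjusted p under 0.05. The called one was Adamts14 (edgeR adjusted p = 0.00877), with 5, 11 and 18 reads in 4T1, against 0 in Eph4-ev, against 0, 1 and 0 in B16F10, against 2, 6 and 0 in Melan-a. Only its 4T1 reads took Adamts14 past the filter on low counts here as well. Without Melan-a replicate 2 its adjusted p was 0.0507. For Adam9 the fold differed between the lineages by 1.34 (SE 0.60, mammary minus melanocyte), which did not pass (edgeR adjusted p = 0.158). For Fat1 and Ctnna1, the most abundant hosts of cell contact, the adjusted p was 0.285 and 1.00.

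Other genes of the adhesion machinery were counted from lists of partners. Of 50 integrin and focal adhesion partners, 30 had reads in the mammary lines, 17 were tested, and 1 was higher and 2 lower in 4T1, a share near the 17.5% of all hosts called. Lpp, a LIM protein of focal adhesions, had 23, 18 and 50 reads in 4T1, against 5, 4 and 7 in Eph4-ev (log2 fold change 3.42, SE 0.50, edgeR adjusted p = 0.000272). Its 4T1 reads took it past the filter on low counts, which its Eph4-ev reads alone would not have done. Dst, which links hemidesmosomes to intermediate filaments, was lower at -1.58 (SE 0.40, adjusted p = 0.0133), as was the tensin Tns3 at -0.71 (SE 0.18, adjusted p = 0.0126). Without Eph4-ev replicate 2 the adjusted p of Dst was 0.107 and that of Tns3 0.0606.

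Of 38 cell junction partners, 19 had reads and 10 were tested, and edgeR called 0, with 2 at an unadjusted p under 0.05. Of 48 basement membrane and matrix partners, 13 had reads and 6 were tested, and 0 were higher and 2 lower in 4T1, where 6.86% of all hosts were higher and 10.6% lower. Dtnb, a dystrobrevin of the dystroglycan complex, had 42, 58 and 174 reads in 4T1, against 696, 925 and 763 in Eph4-ev (log2 fold change -2.26, SE 0.18, edgeR adjusted p = 3.46e-07). Smoc1, a secreted matrix protein, had 0 reads in 4T1, against 15, 28 and 31 in Eph4-ev (edgeR adjusted p = 0.00306, and 0.0582 without Eph4-ev replicate 2). Only its Eph4-ev reads took Smoc1 past the filter on low counts, so the lack of overlap is not separate support. When thinned it was too low to test. In the melanocyte lines 6, 3 and 2 members of these lists were tested and edgeR called 0, with 2, 0 and 1 at an unadjusted p under 0.05.

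The structure of the rings was read from the annotation. Of the 100 mammary rings, 98 could be placed on annotated exons. They held a median of 3 exons, as did all single-host rings of the table, and 82.7% lay within coding sequence, against 82.6% of all. A single exon made up 8.16% of them, against 4.56% of all, with Fat1 exon 2 and Itgb5 exon 10 among the 8. Of the rings, 31.6% began at exon 2, against 34.3% of all, and these gave 64.9% of the reads, against 48.7% for all hosts. The ring of exons 2 to 3 of Ctnna1 gave 589 and that of exon 2 of Fat1 413 of the 2168 reads. The median intron upstream was 12224 bases, against 8247 for all rings. In the melanocyte lines 69 of 71 rings were placed, 23.2% began at exon 2, against 32.0% of all, and gave 44.2% of the reads, against 45.4%. There the median upstream intron was 14717 bases, against 8255. Of 137 rings listed in the melanocyte table, 71 had reads, and 34 rings had reads in both lineages. These are descriptions without a test.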

How the data were processed

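The labels' protocols describe RNase R digestion of total RNA, adapters joined to both ends, reverse transcription and PCR. Per the labels, the authors called circRNAs with CIRI2, from BWA-MEM, and with CIRCexplorer2, from TopHat and TopHat-Fusion output. The submitters' processing notes give mm10 as the build and name DESeq, DESeq2 and edgeR with no role. How the callers were combined and filtered is not given in the sources used here. The deposited count columns are raw junction read counts, as their headers say. In the deposited RPM columns the authors divided each count by the column total: 100% of values gave back the counts within 0.01 reads. RPM is thus relative to all junction reads and says nothing of the amount of circRNA per cell. No molecular identifiers are mentioned, so intervals and floors cover counting error only.

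Counts were summed per host over rings with a single host. Sample columns that matched no label numbered 0. Every pair of libraries of a line differed beyond sampling noise. Each table was fitted whole and alone by the quasi-likelihood test of edgeR 4.0.16 in R 4.3.3, with TMM scaling. Features were kept by filterByExpr (at least 5 reads per library and 10 in total, scaled to depth by the function), p-values were adjusted by Benjamini-Hochberg, and a call is an adjusted p under 0.05. The interaction used all 12 libraries and the hosts that both tables list. Fold changes are 4T1 minus Eph4-ev and B16F10 minus Melan-a on the log2 scale, and their SE was derived from the F statistic. Bounds and pooled ratios use total junction reads, not TMM, with a floor of 3 reads over the 3 libraries of a line. On simulated counts with known changes, a log2 change of 2 was found for 51.0% and of 3 for 87.2% of the changed mammary hosts. For the melanocyte hosts it was 56.7% and 92.0%. The simulation set the same dispersion of 0.2 for every host. Only simulated hosts that passed the filter again were scored (1381 mammary and 809 melanocyte), so these shares need not hold for the real counts.

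The members, the gene lists, the tests and the alternatives were chosen with earlier results of these data known. Members named by rule were those called, the 2 hosts of each family with the highest mean RPM per lineage, members with at least 2 reads in every library of a line and 0 in the other line, and the 3 uncalled tested members with the smallest p per lineage. Other members named in the text were chosen after their values were seen. Alternatives tried were RLE factors, total reads without TMM, no filter, a stricter minimum of 10 reads, DESeq2 1.42.0, voom of limma 3.58.1 with quality weights, a block for the replicate number, thinned counts and leaving out each library. Exon numbers and joins come from GENCODE M21, and coordinates are 1-based. Joins are not shown for every gene.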

Additional observations from a re-analysis of the deposited data

Results flagged for a closer look

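The host Adamts14 was called in the test of the difference between the 2 lineages. Only its 4T1 reads took it past the filter on low counts, so this test is not separate support for its call in 4T1. The fitted log2 difference, 4T1 over Eph4-ev minus B16F10 over Melan-a, was 8.82 (SE 2.18, edgeR adjusted p = 0.00877). The fitted size depends on the prior count, because Eph4-ev had 0 reads, and is no bound. The host had 5, 11 and 18 reads in 4T1, against 0 in each Eph4-ev library, and 0, 1 and 0 in B16F10, against 2, 6 and 0 in Melan-a. Without Melan-a replicate 2, which held most of the melanocyte reads, the adjusted p was 0.0507, and over all the libraries left out in turn it lay between 0.00460 and 0.0507.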

How the results depend on the processing

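Without 1 library at a time, 1 to 2 hosts and 1 to 2 circRNAs were higher in 4T1 and 0 to 1 lower at either level, 0 to 1 were higher in B16F10 at either level, and the interaction called 0 to 1. With no filter 2 hosts were lower in 4T1 (Ptprf and Ctnna1), and under limma-voom 1 (Ptprf). Of circRNAs, 1 was higher in 4T1 with no filter, 2 with a minimum count of 10, 2 with the replicate block and 2 when thinned, and 2 were lower under limma-voom. In B16F10, 1 ring (Ptprm) was higher with total reads alone, a minimum count of 10 or thinning. The interaction called 0 with a minimum count of 10, where Adamts14 was not tested, and 0 with the replicate block (adjusted p = 0.0513). On average 27.0 circRNAs were found in 4T1, 37.7 in Eph4-ev and 18.3 in B16F10 with at least 2 reads, and 31.0 in Eph4-ev when thinned. Where no construction is named, the cause was not tested.

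Some uncalled log2 fold changes changed sign. For mammary hosts, Adam12 gave 0.053 with total reads alone, 0.029 with a minimum count of 10, 0.083 under limma-voom and -1.13 to 0.51 without single libraries. Fat1 gave -0.17 with no filter, -0.0021 under DESeq2 and -0.39 to 0.22 without single libraries. Ptpra gave -0.60 under limma-voom, -0.22 with the replicate block and -1.67 to 0.69 without single libraries. Without single libraries Itgb5 gave -0.33 to 0.79 and Lama5 -1.67 to 0.12. The Ptpra ring gave -0.071 with RLE factors, -0.28 with no filter, -0.21 under DESeq2, -1.51 under limma-voom, -1.08 with the replicate block and -5.47 to 0.47 without single libraries. The Fat1 ring gave 0.13 with total reads alone, 0.035 with a minimum count of 10, 0.044 with the replicate block, 0.17 when thinned and -0.55 to 0.12 without single libraries. The Itgb5 ring of exons 3 to 5 gave -1.18 to 0.28 without single libraries. In the melanocyte lines, Ctnnb1 gave -0.089 to 2.12 and the Adam9 ring -0.12 to 0.44 without single libraries.

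Replicate numbers did not pair the samples: same-numbered libraries had correlations of -0.08 to 0.02 in their deviations, and not every library correlated best with its own number. With the block, Ctnnbl1 was no longer called (adjusted p = 0.227 for the host and 0.219 for the ring), nor was the Itgb5 ring of exon 10 (0.139), so that 2 member hosts were higher in 4T1, and among all hosts 82 were higher and 135 lower, against 104 and 161 without it. With total reads alone the median log2 fold change was 0.04 over all mammary hosts, against -0.09 with TMM, and 142 circRNAs were higher and 176 lower, against 112 and 213. Depth limits most members: 14 of 36 mammary and 9 of 34 melanocyte hosts with reads could be tested.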

Other observations

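No circRNA with several hosts named one of these genes, so no ring of theirs was left out of the host counts.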
